A study of Mus musculus with 27 samples.

Results

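The SR and hnRNP splicing regulators were followed here in single muscle fibers of mice with and without the spinal muscular atrophy gene *Smn1*. They were taken from the array by name alone, as every probe whose gene symbol was Srsf or Sfrs followed by a number, or began with Hnrnp. The rule found 61 probes of 34 genes among 55681 probes carrying 35527 gene names. Of these, 25 probes belonged to 15 SR genes and 36 probes to 19 hnRNP genes. The array's symbols are old, and 6 of the 34 genes now have another name in RefSeq: *Srsf8* is *Sfswap*, *Srsf12* is *Srek1*, *Srsf14* is *Sugp2*, *Srsf15* is *Scaf4*, *Srsf16* is *Clasrp* and *Srsf18* is *Pnisr*. Those genes are not classical SR proteins, and they are described apart from them below. No current symbol was matched for *Srsf11* and *Hnrnpa1l2-ps*, which keep the array's names.

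SR proteins carry an RNA recognition motif and a tail rich in serine and arginine, bind enhancer sequences in exons and recruit the splicing machinery. The hnRNPs coat nascent transcripts, and many of them, *Hnrnpa1* above all, oppose exon inclusion. SMN assembles the small nuclear ribonucleoproteins of the spliceosome, and SR and hnRNP A1 proteins are known for their opposing action on exon 7 of the human SMN genes.

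The 27 arrays each measured 1 myofiber of the tibialis anterior, a fast muscle of the lower leg. All mice were males labelled as aged 3 months. WT myofibers (8, from 2 mice with 4 each) came from wild type mice that the study's Results describe as littermates of the knockouts. Its method for isolating myofibers instead names injected animals and GFP+ mice of a named strain, without mention of littermates. The study does not state whether the WT mice were those GFP+ mice. A difference of strain or transgene between WT and knockout mice was not tested. Smn1deltaSKM myofibers (12, from 3 mice with 4 each) came from untreated HSA-Cre, Smn F7/F7 mice, in which Cre driven by the human skeletal actin promoter removes exon 7 in skeletal muscle, so other cells keep the gene. Smn1deltaSKM+AFS myofibers (7, from 2 mice with 4 and 3) came from mice of that same knockout genotype given c-kit+, GFP+ amniotic fluid stem cells (AFS) by tail vein. The methods place that injection at 3 months and the killing a month later, whereas the label gives the same age as for the other groups. For this injected group the study's Results count fewer myofibers, from 3 mice, whereas its methods count 7 and the labels give 2 mice. The untreated knockout mice were given no vehicle or control cells.

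The mouse was the replicate, so n was 2, 3 and 2, and myofibers of a mouse were averaged. Each level below is the log2 intensity of a probe minus the 75th percentile of its array, so that 0 is that percentile, and each difference is a difference of such levels between groups. Between 23183 and 37595 probes were available per array, meaning that their spots were found, uniform and well above background. The WT arrays were all on a slide and a scan day of their own, so genotype and slide cannot be told apart in any comparison with WT. *Smn1* had 2 probes. The probe at chr13:100907539-100907598 (mm9) read 1.86 and 1.84 in the WT mice, -0.07, 0.20 and 0.36 in the Smn1deltaSKM mice, and -0.34 and 0.82 in the Smn1deltaSKM+AFS mice. Its difference between Smn1deltaSKM and WT was -1.68 ± 0.37 (SE, limma adjusted p = 0.0201), and between Smn1deltaSKM+AFS and WT -1.61 (adjusted p = 0.0499). The probe at chr13:100898171-100898230 read 2.66 and 2.14 in WT, 3.1, 2.17 and 2.51 in Smn1deltaSKM, and 3.00 and 2.58 in Smn1deltaSKM+AFS, a difference from WT of 0.19 in Smn1deltaSKM (adjusted p = 0.715) and 0.39 in Smn1deltaSKM+AFS (adjusted p = 0.534). Neither probe was placed against the deleted exon here, so neither is a check of the deletion itself.

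The sequences of 2 adjoining probes of *Hnrnpk*, of 60 bases each, are shown because they lie end to end in the same transcript and gave different values. They are written 5′ to 3′ as the array's annotation gives them, with mm9 positions.
Hnrnpk, base 1391, chr13:58494618-58494677, minus strand: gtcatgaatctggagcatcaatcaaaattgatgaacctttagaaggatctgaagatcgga
Hnrnpk, base 1451, chr13:58494558-58494617, minus strand: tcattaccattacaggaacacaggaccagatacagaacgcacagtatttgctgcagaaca
Here and below, base is the position of a probe's first base in the transcript that the array lists for it. Whether a probe lies in a coding exon or a UTR was not analysed here.

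The first question was which splicing regulators differ in muscle fibers that lack *Smn1*. Between Smn1deltaSKM and WT, 6 of the 50 tested member probes (of 33 genes) passed the test, 2 higher and 4 lower, a share of 12.0% where 21.5% of all 22169 tested probes passed (7.33% higher and 14.1% lower). At an unadjusted p under 0.05 there were 14 of 50 members, against 39.0% of all probes. All 6 were hnRNP probes. *Hnrnpa1*, *Hnrnpa3*, *Hnrnpab* and *Hnrnpul1* each had a downstream probe that fell, and *Hnrnpa1l2-ps* and *Hnrnph2* had a probe that rose. None of the 18 SR gene probes passed, with 5 of them at an unadjusted p under 0.05 in limma. Over all 50 probes the median difference was -0.17, beside -0.14 over all probes tested, and both turned positive (0.05 and 0.08) when the median of the probes available on every array was set to 0. Of the members 29 were negative and 21 positive. The mice of the 2 groups did not overlap for 22 of 49 probes (44.9%), against 55.3% of all probes.

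**Figure D1:**
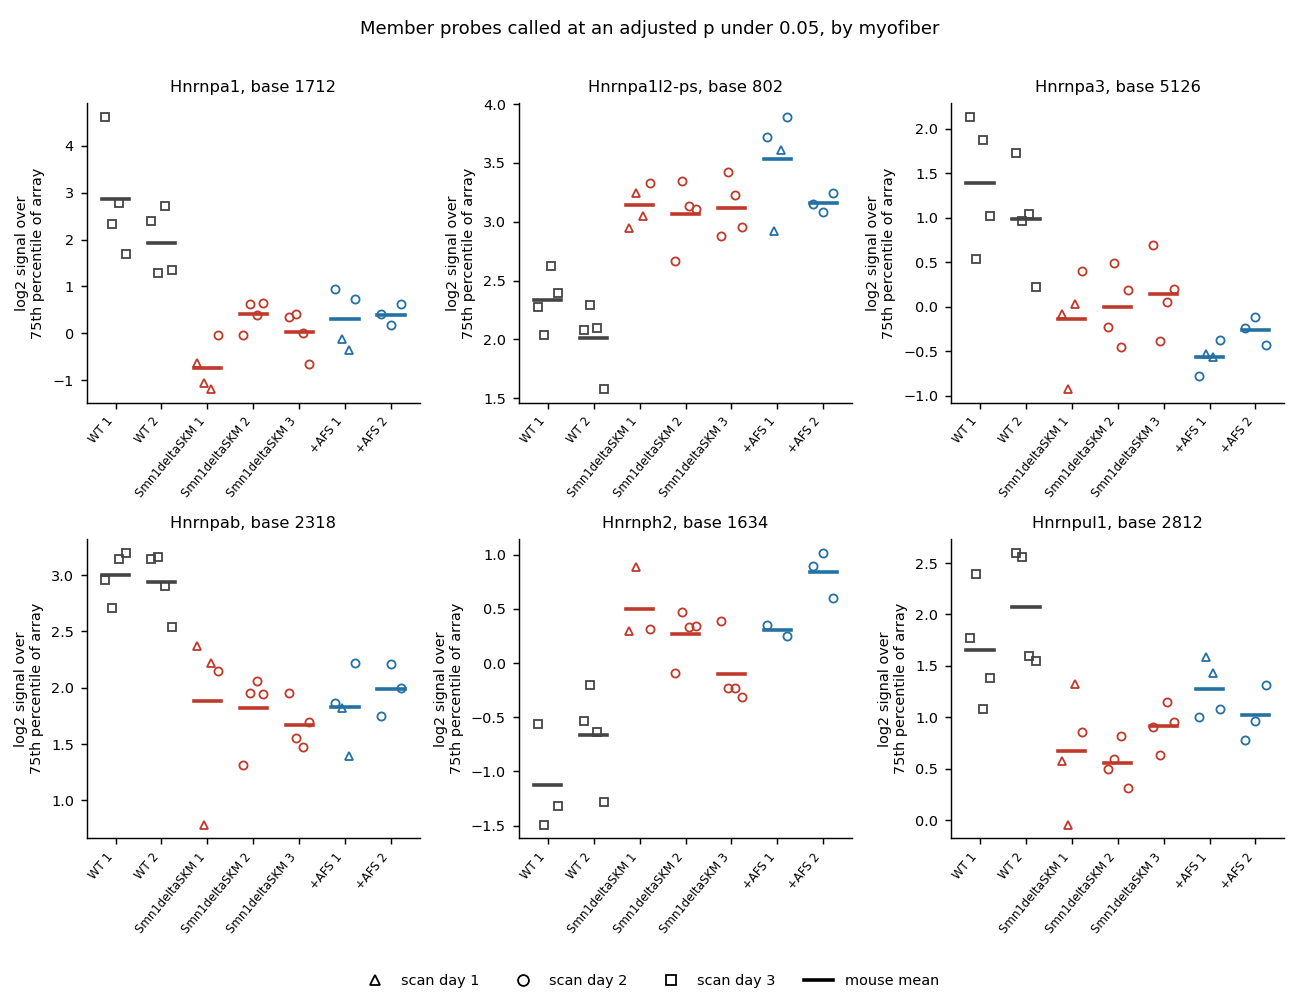
Levels (log2 intensity minus the array's 75th percentile, y axis) of the 6 called member probes in each mouse (x axis, where +AFS stands for Smn1deltaSKM+AFS). Open markers are myofibers, shaped by scan day, and bars are mouse means. For Hnrnpa1, Hnrnpa1l2-ps and Hnrnpab all 12 Smn1deltaSKM myofibers lie on the same side of all 8 WT myofibers.

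*Hnrnpa1*, the best known hnRNP repressor of exon inclusion, had the largest difference of the members. Its probe at base 1712 (chr15:103075181-103075240) read 2.85 and 1.94 in the WT mice, -0.73, 0.41 and 0.03 in the Smn1deltaSKM mice, and 0.31 and 0.40 in the Smn1deltaSKM+AFS mice. By myofiber the lowest, median and highest levels were 1.28, 2.36 and 4.61 in WT, -1.18, -0.01 and 0.66 in Smn1deltaSKM, and -0.35, 0.41 and 0.95 in Smn1deltaSKM+AFS. Every knockout myofiber, injected or not, was below every WT myofiber, a separation that 10.8% of all probes showed between Smn1deltaSKM and WT. The difference was -2.49 ± 0.41 (SE, adjusted p = 0.0106), a 5.62-fold lower signal, between Smn1deltaSKM and WT. Between Smn1deltaSKM+AFS and WT it was -2.04 (adjusted p = 0.0383). The first call held with the slide as a random block or the mouse number as a block, and the second was lost with them (limma adjusted p = 0.0625 and 0.0518). All WT arrays shared a slide of their own, so here and below a slide block cannot separate slide from genotype. Mouse numbers name different animals in each group.

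The upstream *Hnrnpa1* probe at base 577 did not go the same way. Its mouse levels were -1.52 and -1.18 in WT, 1.22, -1.47 and -1.61 in Smn1deltaSKM, and 0.38 and -1.51 in Smn1deltaSKM+AFS. By myofiber it read -2.23, -1.34 and -0.61 in WT (lowest, median, highest), -2.01, -1.34 and 2.65 in Smn1deltaSKM, and -1.77, -1.31 and 2.83 in Smn1deltaSKM+AFS. The group medians were thus alike, and the high values sat in mouse 1 of both knockout groups. The fitted difference from WT was 0.73 (adjusted p = 0.558), and this probe had the widest spread of any tested member, with an SD of 1.31 between mice of a group and 1.11 between myofibers of a mouse.

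*Hnrnpa1l2-ps* is, by its name, a near copy of *Hnrnpa1*, so the assignment of its signal to that copy is uncertain. Its only tested probe, at base 802 (chr13:75002641-75002700), rose. The WT mice read 2.33 and 2.01, the Smn1deltaSKM mice 3.14, 3.07 and 3.12, and the Smn1deltaSKM+AFS mice 3.54 and 3.16. The myofibers ran from 1.58 through a median of 2.18 to 2.62 in WT, from 2.67 through 3.12 to 3.42 in Smn1deltaSKM, and from 2.92 through 3.25 to 3.89 in Smn1deltaSKM+AFS. All 12 and all 7 knockout myofibers were above every WT myofiber. The difference was 0.94 ± 0.27 (SE, adjusted p = 0.0414) in Smn1deltaSKM and 1.18 (adjusted p = 0.0495) in Smn1deltaSKM+AFS, each against WT. The first call was lost with the slide as a random block (adjusted p = 0.0676) and with the mouse number as a block (0.0932), and the second with the mouse number as a block (0.0710).

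*Hnrnpa3*, a close relative of *Hnrnpa1* that also carries RNA in transport granules, had 7 tested probes. Their differences between Smn1deltaSKM and WT were positive at the 3 upstream probes and negative at the 4 downstream ones. They were 0.43 at base 644, 0.18 at base 858 and 0.67 at base 1438, then -0.55 at base 1732, -0.45 at base 1796, -0.88 at base 2451 and -1.19 at base 5126. Only the last passed the test (SE 0.28, adjusted p = 0.0228). At that probe (chr2:75507367-75507426) the WT mice read 1.39 and 0.99, the Smn1deltaSKM mice -0.14, 0.00 and 0.14, and the Smn1deltaSKM+AFS mice -0.56 and -0.26. By myofiber it ran from 0.22 through a median of 1.03 to 2.13 in WT, from -0.92 through 0.05 to 0.70 in Smn1deltaSKM, and from -0.77 through -0.43 to -0.12 in Smn1deltaSKM+AFS. Of the Smn1deltaSKM myofibers 9 of 12, and of the Smn1deltaSKM+AFS myofibers all 7, were below every WT myofiber. The Smn1deltaSKM call was lost with the slide as a random block (adjusted p = 0.113) and with the mouse number as a block (0.05035).

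The other 6 *Hnrnpa3* probes overlapped between the groups by myofiber. At base 1438 the WT mice read 3.14 and 2.73, the Smn1deltaSKM mice 3.97, 3.61 and 3.24, and the Smn1deltaSKM+AFS mice 3.15 and 3.48, with myofibers at 2.67, 2.83 and 3.45, at 2.86, 3.68 and 4.33, and at 2.90, 3.29 and 3.51 (lowest, median and highest in each group). At base 2451 the mice read -0.65 and -0.74, then -1.35, -1.71 and -1.67, then -1.16 and -2.36, with myofibers at -1.39, -0.62 and -0.14, at -2.49, -1.47 and -0.68, and at -2.74, -2.17 and -1.16. The first of these probes had every Smn1deltaSKM mouse above the WT mice, and the second had every one of them below. At base 644 the mice read -0.75 and -1.37, then 0.10, -1.25 and -0.73, then -1.21 and -1.37, with myofibers at -2.16, -0.92 and -0.55, at -1.38, -1.10 and 0.93, and at -1.44, -1.30 and -1.15. At base 858 they read 1.93 and 1.93, then 2.14, 2.04 and 2.17, then 1.93 and 2.17, with myofibers at 1.56, 1.93 and 2.23, at 1.81, 2.13 and 2.34, and at 1.62, 2.01 and 2.40. The probe at base 644, like the upstream probe of *Hnrnpa1*, was highest in Smn1deltaSKM mouse 1, while the probe at base 858 varied least of the 7 (SD between mice 0.0982). At base 1732 the mice read 2.93 and 2.29, then 2.15, 2.20 and 1.84, then 1.83 and 2.39, with myofibers at 2.03, 2.52 and 3.55, at 1.57, 1.98 and 2.75, and at 1.46, 2.01 and 2.50. At base 1796 they read 3.28 and 2.50, then 2.46, 2.56 and 2.32, then 2.32 and 2.61, with myofibers at 2.17, 2.79 and 3.65, at 2.10, 2.28 and 3.07, and at 2.11, 2.53 and 2.73.

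*Hnrnpab* encodes an RNA binding protein related to the A/B group and to hnRNP D. Its probe at base 2318 (chr11:51413628-51413687) read 3.00 and 2.94 in the WT mice, 1.88, 1.82 and 1.67 in the Smn1deltaSKM mice, and 1.83 and 1.98 in the Smn1deltaSKM+AFS mice. The myofibers ran from 2.54 through 3.05 to 3.20 in WT, from 0.78 through 1.95 to 2.37 in Smn1deltaSKM, and from 1.39 through 1.87 to 2.22 in Smn1deltaSKM+AFS, so no knockout myofiber reached the WT range. The probe fell in Smn1deltaSKM by 1.18 ± 0.25 on the log2 scale (SE, adjusted p = 0.0186). The call was lost with the slide as a random block (adjusted p = 0.0537) and with the mouse number as a block (0.0580). The difference of Smn1deltaSKM+AFS from WT, -1.06, did not pass (adjusted p = 0.0534). The upstream probe at base 1032 read 3.67 and 3.37 in WT, 4.51, 3.21 and 3.30 in Smn1deltaSKM, and 3.98 and 3.77 in Smn1deltaSKM+AFS. Its myofibers were at 2.79, 3.61 and 3.87, at 2.83, 3.42 and 4.70, and at 3.54, 3.83 and 4.44 (lowest, median and highest), and its difference was 0.16 (adjusted p = 0.803).

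The remaining A/B and D probes did not pass. *Hnrnpa0* gave 0.43 at base 616 and -0.76 at base 2487 (adjusted p = 0.0843), where 10 of 12 Smn1deltaSKM myofibers were below every WT myofiber. *Hnrnpa2b1*, whose protein sorts RNA as well as splicing it, gave -0.30, and *Hnrnpd*, which encodes the mRNA decay factor AUF1, gave -0.27. Of the 16 tested probes of these 7 genes, 1 was called higher and 3 lower, with a median of -0.28. Over all probes 7.33% were called higher and 14.1% lower.

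Among the other hnRNPs, 16 probes of 11 genes were tested, with a median of -0.08. Of these 1 was called higher and 1 lower, where 7.33% of all probes were called higher and 14.1% lower. *Hnrnph2*, which binds runs of G, rose at its probe at base 1634 (chrX:131140864-131140923). The WT mice read -1.12 and -0.66, the Smn1deltaSKM mice 0.50, 0.27 and -0.10, and the Smn1deltaSKM+AFS mice 0.30 and 0.84. The probe had values on 7 WT, 11 Smn1deltaSKM and 5 Smn1deltaSKM+AFS myofibers, which ran from -1.49 through -0.63 to -0.20, from -0.32 through 0.31 to 0.89, and from 0.25 through 0.60 to 1.02. Of the 11 Smn1deltaSKM myofibers 8 were above every WT myofiber, as were all 5 Smn1deltaSKM+AFS myofibers. The difference from WT was 1.11 ± 0.32 (SE, adjusted p = 0.0416) in Smn1deltaSKM and 1.47 (adjusted p = 0.0455) in Smn1deltaSKM+AFS. Both calls were lost with quantile normalization (adjusted p = 0.0532 and 0.0577), with the slide as a random block (0.0708 and 0.0644) and with the mouse number as a block (0.0520 and 0.0536).

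*Hnrnpul1*, a relative of the scaffold protein hnRNP U, fell at its probe at base 2812 (chr7:26507059-26507118). The mice read 1.65 and 2.08 in WT, 0.68, 0.56 and 0.91 in Smn1deltaSKM, and 1.27 and 1.02 in Smn1deltaSKM+AFS. The myofibers ran from 1.08 through 1.68 to 2.60 in WT, from -0.05 through 0.73 to 1.32 in Smn1deltaSKM, and from 0.78 through 1.08 to 1.58 in Smn1deltaSKM+AFS, and 10 of 12 Smn1deltaSKM myofibers were below every WT myofiber. The difference was -1.15 ± 0.28 (SE, adjusted p = 0.0260) in Smn1deltaSKM and -0.72 (adjusted p = 0.161) in Smn1deltaSKM+AFS. The call, but not the direction, was lost in 6 of 15 settings that kept all mice. Among them were normexp background correction with quantile normalization (-0.44, adjusted p = 0.165), the slide as a random block (adjusted p = 0.0932) and the mouse number as a block (adjusted p = 0.0512). The upstream probe at base 1082 gave -0.05.

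*Hnrnpk*, which binds runs of C, had the adjoining probes printed above. At base 1391 the WT mice read 4.07 and 3.73, the Smn1deltaSKM mice 3.27, 2.46 and 2.68, and the Smn1deltaSKM+AFS mice 3.22 and 2.65. The difference there was -1.10 and narrowly missed the threshold (adjusted p = 0.0519). At base 1451, starting where that probe ends, the mice read 2.90 and 2.71, then 3.02, 2.54 and 2.51, then 2.83 and 2.51, a difference of -0.12 (adjusted p = 0.787). The probe at base 1689 gave -0.02. Adjoining stretches of the same transcript thus gave differences about 1 log2 unit apart. The other differences that did not pass were 0.70 at base 259 and 0.52 at base 1277 of *Hnrnpc*, 0.98 at base 455 and 0.33 at base 2412 of *Hnrnpf*, -0.36 for *Hnrnph1*, -0.34 for *Hnrnpl*, -0.32 for *Hnrnpm*, -0.93 for *Hnrnpr*, -0.34 for *Hnrnpu* and 0.03 for *Hnrnpul2*. The *Hnrnpf* probe at base 455 read 1.81 and 1.71 in the WT mice and 3.96, 1.93 and 2.33 in the Smn1deltaSKM mice, so its difference rested mainly on Smn1deltaSKM mouse 1.

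**Figure D2:**
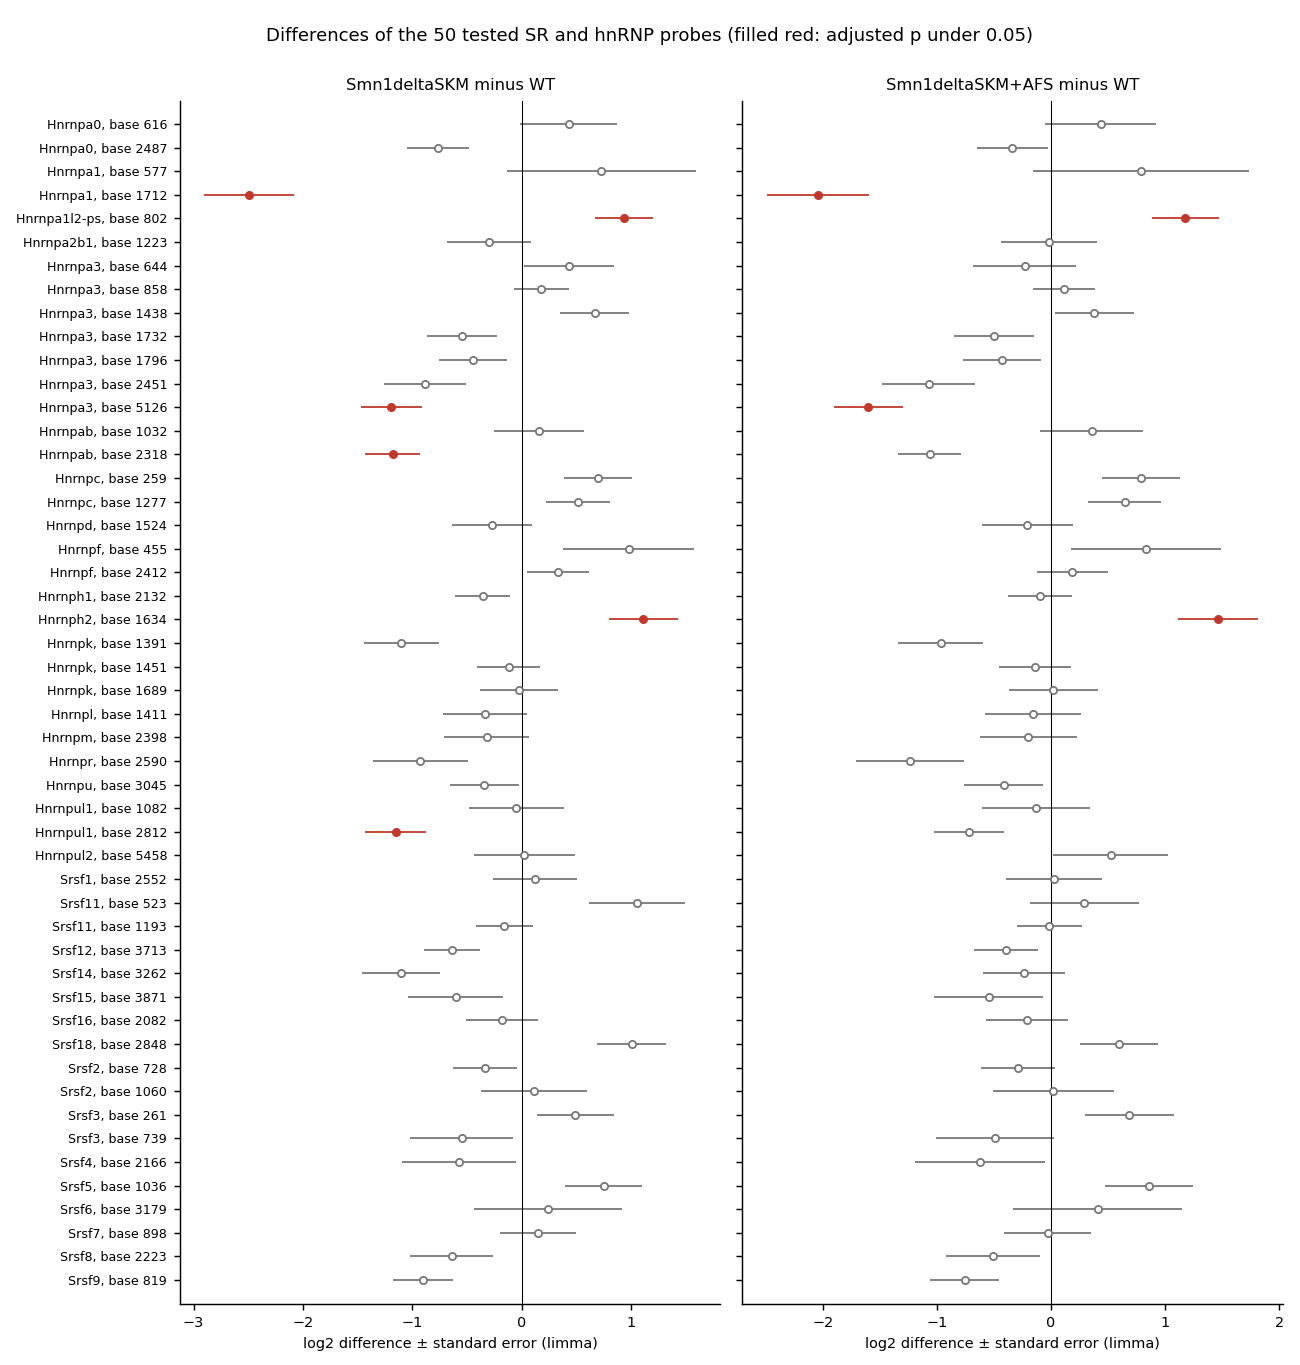
Difference in level (log2, x axis) of each of the 50 tested member probes (rows, by gene and base) between Smn1deltaSKM and WT (left) and between Smn1deltaSKM+AFS and WT (right), with bars for the SE. Filled red points are the 6 and 4 called probes, and the SR genes hold none.

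None of the 10 tested probes of the 8 classical SR genes passed (limma), where 21.5% of all probes did. In limma 1 of them had an unadjusted p under 0.05, against 39.0% of all probes, and their median was 0.12. *Srsf1*, the founding SR protein, gave 0.12 at base 2552, and *Srsf2*, which binds both exons and paused transcription complexes, gave -0.33 at base 728 and 0.11 at base 1060. *Srsf3*, the smallest SR protein, gave 0.49 at base 261 and -0.55 at base 739. *Srsf4* gave -0.57, *Srsf5* 0.75, *Srsf6* 0.25 at base 3179 (0.245 before rounding) and *Srsf7*, which has a zinc knuckle, 0.15 at base 898. *Srsf9* gave -0.90 ± 0.28 (SE, adjusted p = 0.0501), just outside the threshold of 0.05, where *Hnrnph2* at 0.0416 was the member just inside it. The WT mice read -0.94 and -0.85, the Smn1deltaSKM mice -1.67, -1.65 and -2.07, and the Smn1deltaSKM+AFS mice -1.82 and -1.48, and 9 of 11 Smn1deltaSKM myofibers were below every WT myofiber.

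The 8 tested probes of the 7 other numbered SR genes had no call either (limma), where 21.5% of all probes were called. In limma 4 had an unadjusted p under 0.05, against 39.0% of all probes, and their median was -0.39. *Srsf8* gave -0.64, *Srsf15* -0.60 and *Srsf16* -0.18. *Srsf11* gave 1.06 at base 523 (adjusted p = 0.111) and -0.16 at base 1193. *Srsf14* gave -1.10 (adjusted p = 0.0641) with no value in Smn1deltaSKM mouse 1, so this rested on 2 mice in each group. *Srsf12* gave -0.64 (adjusted p = 0.105), with WT mice at 8.34 and 8.50 and Smn1deltaSKM mice at 7.92, 7.63 and 7.79. It had the smallest spread between myofibers of any tested member (SD 0.131), and all 12 Smn1deltaSKM myofibers were below all 8 WT myofibers. Its probe holds a GT repeat of 30 bases, which makes its gene assignment uncertain, and 25 probes on the array hold a repeat at least as long. *Srsf18* gave 1.01 at base 2848 (adjusted p = 0.0520), with 11 of 12 Smn1deltaSKM myofibers above every WT myofiber.

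The 11 untested probes had values on fewer than 75% of the arrays. The number of probes available per array differed between mice, and the counts of myofibers below were not adjusted for it. It ran from 23871 to 27329 in WT, apart from 34012 in fiber 4 of WT mouse 2. In Smn1deltaSKM it ran from 23183 to 28015 in mouse 1 and from 30934 to 37595 in mice 2 and 3. In Smn1deltaSKM+AFS it ran from 25887 to 30498. *Hnrnph3*, a member of the H/F group, was the only gene without a tested probe, and its values were on 2 WT, 4 Smn1deltaSKM and 1 Smn1deltaSKM+AFS myofibers at base 508 and on no array at base 2075. The downstream *Srsf18* probe at base 4179 had values on all 8 WT, 6 of 12 Smn1deltaSKM and 2 of 7 Smn1deltaSKM+AFS myofibers. Without the filter and with dim signals kept, it differed from WT by -1.96 in Smn1deltaSKM (adjusted p = 0.0177) and by -2.48 in Smn1deltaSKM+AFS (adjusted p = 0.0196), the opposite sign to the upstream probe. Downstream *Srsf1* probes thinned out in the same groups. The probe at base 5019 had values on 4 WT, 1 Smn1deltaSKM and 0 Smn1deltaSKM+AFS myofibers, and the probe at base 5101 on 8, 8 and 3. At base 5019 the WT signal was at least 4.7-fold higher than in Smn1deltaSKM+AFS, where no spot was well above background. That bound sets the WT mean against the lowest signal detected on each array, or the dim probe's own signal where that was higher. In the fit without the filter the difference was -2.27 (adjusted p = 0.144). *Srsf11* at base 1177 had values on 3 Smn1deltaSKM myofibers of mouse 2 alone, at -3.64, -2.80 and -2.78. With dim signals kept, its mean over myofibers was -3.16 in WT, -3.63 in Smn1deltaSKM and -3.90 in Smn1deltaSKM+AFS. The group with values was thus not the one with the highest signal. The rest were *Hnrnpa1l2-ps* at base 354 (2 WT, 10 Smn1deltaSKM and 5 Smn1deltaSKM+AFS myofibers), *Hnrnpa2b1* at base 1587 (4, 9 and 3), *Srsf3* at base 2447 (1, 1 and 1), *Srsf6* at base 1235 (6, 8 and 4) and *Srsf7* at base 1334 (2, 11 and 6).

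The second question was whether myofibers of injected mice differed from those of untreated knockout mice. No member probe passed between Smn1deltaSKM+AFS and Smn1deltaSKM (limma), as none of all 22169 probes did (0.0%), and 1 member (*Srsf14*) had an unadjusted p under 0.05, against 3.21% of all probes. With the slide as a fixed and the mouse as a random block, 519 of all probes (2.34%) and no member passed in limma. In that fit 5 of 50 members had an unadjusted p under 0.05, against 2555 of all 22169 probes. The member differences ran from -0.77 (*Srsf11*, base 523) to 0.86 (*Srsf14*), with a median of 0.06 both over the members and over all probes. Every Smn1deltaSKM+AFS mouse was above or every one below the Smn1deltaSKM mice for 7 of 49 members (14.3%), against 16.5% of all probes.

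Against WT, the Smn1deltaSKM+AFS myofibers had 4 of 50 member probes called, 2 higher and 2 lower, where 7.33% of all probes were called (2.99% higher and 4.34% lower). At an unadjusted p under 0.05 there were 11 of 50, against 29.4% of all probes. These were *Hnrnpa1* (base 1712) and *Hnrnpa3* (base 5126) lower, and *Hnrnpa1l2-ps* and *Hnrnph2* higher. At *Hnrnpa3* the difference was -1.60 ± 0.30 (SE, adjusted p = 0.0271). This comparison shares its WT mice with the first, so the values of a probe in both are not independent. *Hnrnpab* and *Hnrnpul1* were called in the first comparison and not in this one, and their differences between injected and untreated knockout mice were 0.12 (adjusted p = 0.9999) and 0.43 (adjusted p = 0.9999). The myofibers of Smn1deltaSKM+AFS and WT did not overlap for 5 of 50 members, against 14.1% of all probes, and their mice did not overlap for 26 of 50 (52.0%), against 67.9% of all probes.

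The signs of probes within a gene were then compared by position, a comparison chosen after the member values had been seen. For each gene with more than 1 tested probe, the most downstream probe was set against the most upstream one within each mouse. Probes were ordered by genome position along the strand of the gene, not within a single transcript. The array lists different transcripts for the 2 probes of *Hnrnpa1*, *Hnrnpa3*, *Hnrnpf*, *Hnrnpk*, *Hnrnpul1* and *Srsf11*. The part of differences between transcripts of a gene was not tested. The downstream probe was lower relative to the upstream one, between Smn1deltaSKM and WT, in 9 of the 11 member genes (81.8%, median -1.10), where it was lower in 56.2% of all 3538 such genes (median -0.14). The member values were -3.22 for *Hnrnpa1*, -1.62 for *Hnrnpa3*, -1.34 for *Hnrnpab*, -1.22 for *Srsf11*, -1.19 for *Hnrnpa0*, -1.10 for *Hnrnpul1*, -1.04 for *Srsf3*, -0.65 for *Hnrnpf* and -0.18 for *Hnrnpc*, against 0.44 for *Srsf2* and 1.08 for *Hnrnpk*. Without Smn1deltaSKM mouse 1 they were -1.99 for *Hnrnpa1*, -0.72 for *Hnrnpul1*, -0.16 for *Hnrnpf* and 0.06 for *Srsf2*. Without WT mouse 2, *Hnrnpul1* stood at -0.45 and *Hnrnpc* turned to 0.07. With all mice, no member passed the test (limma), the lowest adjusted p being 0.0512 for *Hnrnpa3*, while 14.9% of all genes passed. At an unadjusted p under 0.05 in limma there were 7 of the 11 members, against 1163 of all 3538 genes. Without Smn1deltaSKM mouse 1, *Hnrnpa3* (-1.19, adjusted p = 0.0244) and *Hnrnpab* (-0.96, adjusted p = 0.0396) passed, beside 888 of all genes. In Smn1deltaSKM+AFS against WT the downstream probe was lower in 9 of 11 members (median -0.64) and in 55.1% of all genes. No member was called in limma, against 8.31% of all genes. At an unadjusted p under 0.05 in limma there were 4 of 11 members, against 984 of all 3538 genes. Between the knockout groups it was lower in 4 of 11 members and in 47.5% of all genes. Over all genes the share grew from 50.4% where the probes lay up to 300 bases apart in the genome to 61.2% where they lay over 10000 bases apart. The median distance was 2539 bases in the members and 1505 bases in all genes. The slide cannot be told apart from genotype here.

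**Figure D3:**
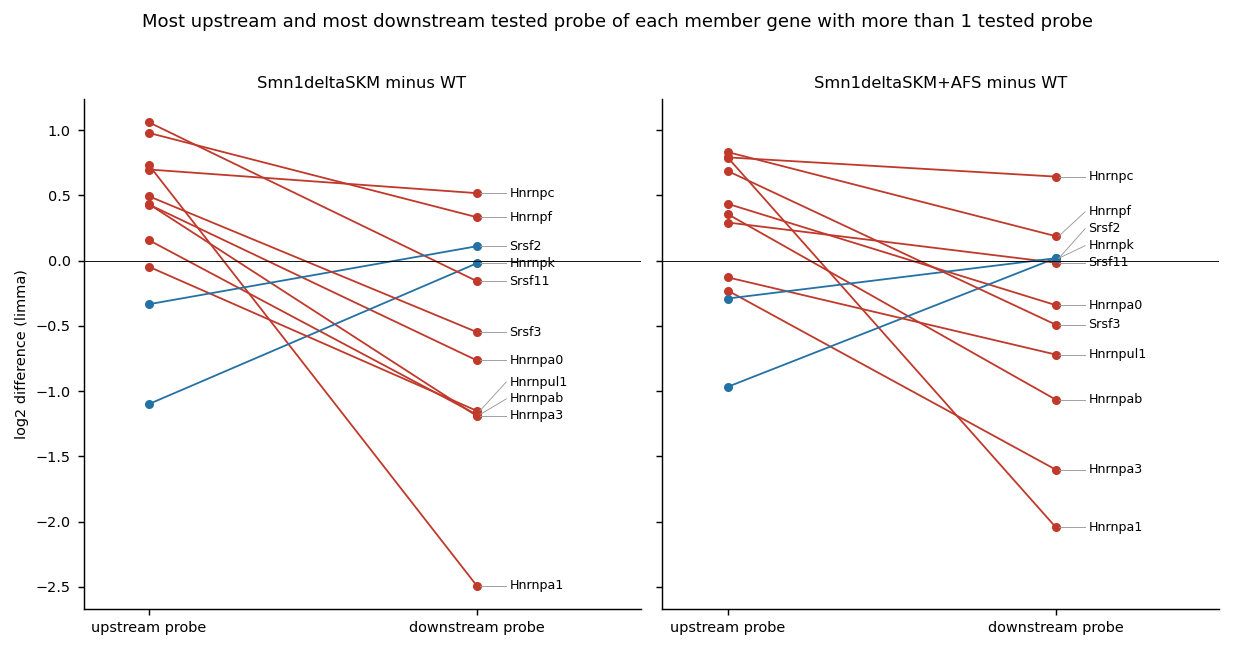
Difference from WT (log2, y axis) of the most upstream and most downstream tested probe (x axis) of the 11 member genes with more than 1 tested probe, in Smn1deltaSKM (left) and Smn1deltaSKM+AFS (right). Lines join the probes of a gene, and they run downward (red) in 9 genes and upward (blue) in Hnrnpk and Srsf2 in both panels.

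A split of the knockout myofibers by scan day was no more common among the members than over all probes. The slides of day 1 held no day 2 array, so scan day and slide cannot be told apart. Of the 19 knockout myofibers, 5 were scanned on day 1 (3 of Smn1deltaSKM mouse 1, all on a slide of their own, and 2 of Smn1deltaSKM+AFS mouse 1) and 14 on day 2. The day 1 myofibers were all above the day 2 myofibers for 2 of 40 member probes with values on all 19, and below for 0 (5.0%), against 6.82% of all probes. The first was the upstream *Hnrnpa1* probe at base 577, which ran from 0.46 to 2.83 on day 1 and from -2.01 to -0.43 on day 2. The second was *Srsf6* at base 3179, which ran from 0.03 to 2.21 on day 1 and from -2.15 to -0.17 on day 2. Within Smn1deltaSKM mouse 1, the day 1 mean and the day 2 myofiber were 2.24 and -1.86 for *Hnrnpa1* and 1.25 and -1.32 for *Srsf6*, so these differences were present within an animal. Without the 3 myofibers of that day 1 slide, an alternative chosen after seeing the data, 9 member probes (18.0%, against 28.2% of all probes) were called between Smn1deltaSKM and WT, the 6 above plus *Hnrnpa0* at base 2487 (-0.80), *Srsf14* (-1.10) and *Srsf9* (-1.06, adjusted p = 0.0225). Without Smn1deltaSKM mouse 1 altogether, 16 were called, 3 higher and 13 lower (32.0%, against 43.8% of all probes). These included the 6, *Hnrnpk* at base 1391 (-1.33), *Hnrnpr* (-1.33), *Srsf3* at base 739 (-0.98), *Srsf8* (-1.0), *Srsf12* (-0.71) and *Srsf15* (-1.06), and *Srsf18* was higher (0.98). Without Smn1deltaSKM mouse 2, 1 member was called (8.48% of all probes), and without mouse 3 also 1 (9.66%). Leaving out either WT mouse, which leaves WT with 1 mouse, gave no call among the members or among all probes in limma, with 4635 (without WT mouse 1) and 5965 (without WT mouse 2) of all probes at an unadjusted p under 0.05.

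**Figure D4:**
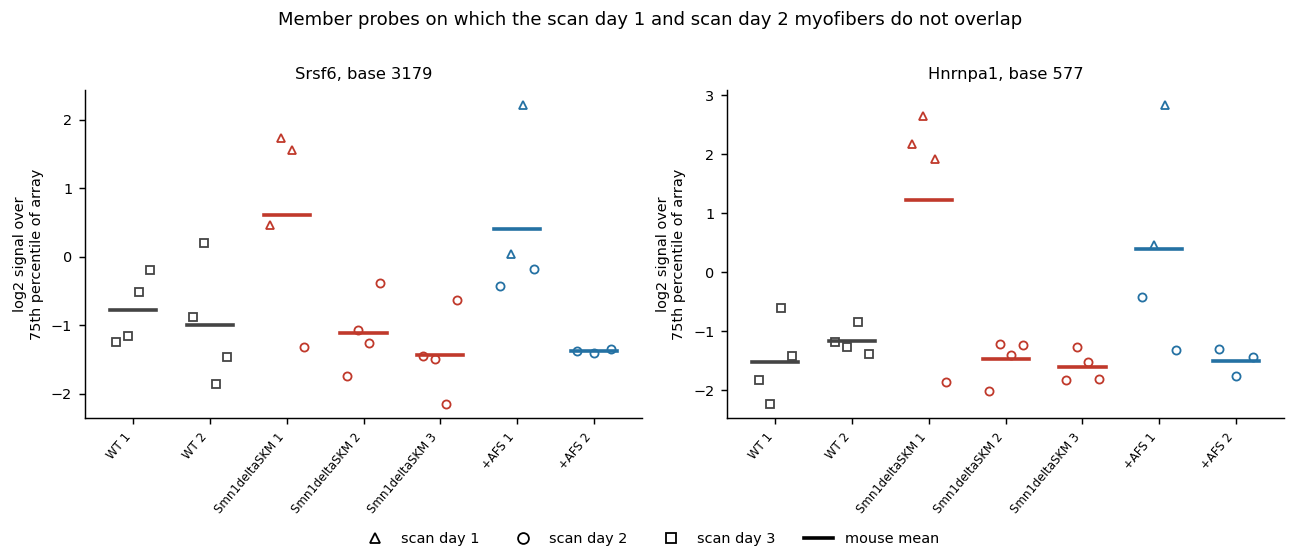
Levels (log2 intensity minus the array's 75th percentile, y axis) of the Srsf6 probe at base 3179 and the Hnrnpa1 probe at base 577 in each mouse (x axis, where +AFS stands for Smn1deltaSKM+AFS). Open markers are myofibers, shaped by scan day, and bars are mouse means. The 5 knockout myofibers of scan day 1 (triangles) lie above the 14 of scan day 2 (circles).

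Genes that act on or beside these proteins were counted from lists that were not part of the naming rule. The SR protein kinases, which phosphorylate the serine and arginine tails, and the nuclear importins *Tnpo1* and *Tnpo3* had 14 tested probes. Of these 0 were called higher and 6 lower (median -0.68), where 7.33% of all probes were called higher and 14.1% lower. By sign 5 were positive and 9 negative, with *Clk1* at 1.14 (limma adjusted p = 0.0982) and *Srpk2* at 1.12 (adjusted p = 0.137). *Clk3* fell by 1.38 on the log2 scale (adjusted p = 0.0263), *Srpk1* by 1.36 (adjusted p = 0.0160) and the importin *Tnpo3* by 1.36 (adjusted p = 0.0160). Proteins of the hnRNP family under other names had 21 tested probes, 1 higher and 5 lower (median -0.54). *Taf15*, an RNA binding protein also found with the transcription factor TFIID, fell by 2.42 (adjusted p = 0.0068), *Syncrip* by 1.57 (adjusted p = 0.0199) and the RNA stabilising factor *Elavl1* by 1.42 (adjusted p = 0.0199), while a probe of the exon repressor *Ptbp1* rose by 1.44 (adjusted p = 0.0324). The other *Ptbp1* probe gave 0.04 (adjusted p = 0.925). SR-related and U2AF proteins had 23 tested probes, 1 higher and 4 lower (median -0.30), with *Srrm2*, a spliceosome scaffold, at -1.82 (adjusted p = 0.0144), *Rnps1* at -1.56 (adjusted p = 0.0419), the 3′ splice site factor *U2af1* at -1.51 (adjusted p = 0.0311) and *Acin1* at 0.98 (adjusted p = 0.0328). The other tested probes of *Srrm2*, *U2af1* and *Acin1* gave -0.94, -0.61 and -0.16 and did not pass. The 5 calls of this list among 23 probes are close to the 21.5% over all probes.

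The muscle splicing regulators had 19 tested probes, 0 higher and 7 lower (median -0.87), where 7.33% of all probes were called higher and 14.1% lower. *Celf2* stood at -2.83 (adjusted p = 0.0066), with its other probes at -1.51 (adjusted p = 0.0260) and -1.11 (adjusted p = 0.0854), *Rbm24*, which promotes muscle exons, at -2.11 (adjusted p = 0.0128) and *Mbnl1*, the factor sequestered in myotonic dystrophy, at -2.04 (adjusted p = 0.0137). All 4 lists had medians below the -0.14 of all probes. Against WT, the Smn1deltaSKM+AFS myofibers had 3, 2, 1 and 2 probes of these lists lower (of 14, 21, 23 and 19 tested) and 0 higher. Over all probes 4.34% were called lower and 2.99% higher in that comparison. Between the knockout groups none was called in limma, and none of the tested probes of these lists had an unadjusted p under 0.05.

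**Figure D5:**
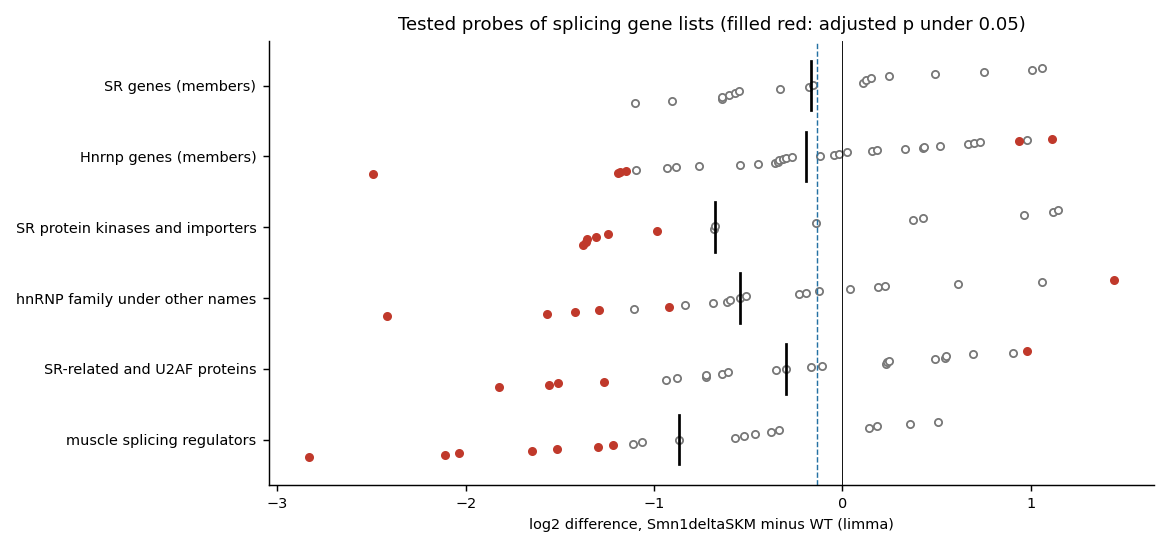
Difference in level (log2, x axis) between Smn1deltaSKM and WT of each tested probe of the SR genes, the hnRNP genes and the 4 other lists (rows). Filled red points are called probes, vertical bars are list medians and the dashed line is the median of all tested probes (-0.14). The muscle splicing regulators have the lowest median, -0.87.

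Markers of muscle and of other cells were read on the same arrays as summed linear levels. The 8 skeletal myofiber markers summed to 1320 to 2000 in WT, 819 to 1460 in Smn1deltaSKM and 1220 to 1760 in Smn1deltaSKM+AFS, with at least 6 of them on every array. The 4 endothelial markers summed to 5.19 to 16.1, 8.42 to 16.2 and 12.2 to 17.6, and the 6 leukocyte markers to 198 to 315, 189 to 261 and 231 to 313. The 4 fibro-adipogenic markers summed to 0.261 to 60.3, 0.497 to 19.8 and 0.366 to 16.4, with *Pdgfra* on no WT and no Smn1deltaSKM+AFS array. The 3 red blood cell markers summed to 0.144 to 30.9, 0.661 to 27.7 and 0.705 to 39.5. The 2 satellite cell markers stayed at or under 0.301. The ranges of each of these lists overlapped between WT and Smn1deltaSKM, but some medians moved with the groups. The median of the myofiber markers was 1780 in WT, 1090 in Smn1deltaSKM and 1500 in Smn1deltaSKM+AFS, that of the fibro-adipogenic markers 0.617, 5.23 and 8.01, and that of the red blood cell markers 0.505, 0.832 and 11.1. The part of other cells in the member results was not tested. Fewer copies of a transcript and less RNA in a myofiber cannot be told apart on these arrays.

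The SD of single myofibers within a mouse was of the same size as the SD of mouse means within a group. Over the 50 tested members, the SD between myofibers of a mouse ran from 0.131 to 1.11 with a median of 0.392, beside 0.447 over all probes. The SD between mouse means of a group ran from 0.0973 to 1.31 with a median of 0.399, and the myofiber SD was the larger for 28 of 50. A mouse mean averages several myofibers, so its SD would be the smaller if mice did not differ. SDs of like size thus imply a spread between mice beyond that among their myofibers. Its source was not tested. No member spot was saturated.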

How the data were processed

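Single tibialis anterior myofibers were profiled on 27 one-colour Agilent arrays (mm9 annotation) after whole-transcriptome amplification of their RNA. The authors extracted spot intensities with Agilent Feature Extraction 10.7.3.1, and the deposited scanner intensity (the processed signal, background-subtracted) was used. The deposited value table, the authors' linear intensity after normalization between arrays, served as an alternative. The other columns used were spot flags, per the file headers. Spots that were not found, not uniform or not well above background had no value. Repeat spots were averaged. As in the study's own filter, a probe was tested if at least 75% of its values were available, which left 22169 of 55681 probes (16648 genes). Mean log2 levels per mouse entered 1 limma fit (limma 3.58.1, R 4.3.3) over 7 mice with 3 contrasts and Benjamini-Hochberg adjustment over all tested probes. A probe with adjusted p under 0.05 was called. Scripts were tested on simulated data. The methods' SAM analysis takes myofibers as independent and was not run. The number of arrays and mice limits the precision.

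Current symbols came from RefSeq (GRCm38.p6) by accession for 32 of 34 genes. Transcript sequences were not used here, so probe cross-reaction was not checked. A few sequences and marker genes are not reported here. The member genes, the other lists and the tests were chosen with earlier results of these data known. Every tested member was named by rule with its difference, and levels were given for called members, for probes of a called gene with opposite sign and for probes detected in 1 group alone. For the other lists, up to 3 called probes per direction with the largest difference were named, while the levels of *Hnrnpk*, *Hnrnpf*, *Srsf6*, *Srsf9*, *Srsf12* and *Srsf18* were added after their values were seen. Alternatives were 4 normalizations, 4 rules on dim or repeated probes, blocks for mouse, slide, scan day and mouse number, myofibers as replicates, a threshold of 0.01, 2-group fits, each mouse left out and, chosen after seeing the data, 3 myofibers of a slide left out.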

Additional observations from a re-analysis of the deposited data

Results flagged for a closer look

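Among 32 sets of WT or Smn1deltaSKM+AFS myofibers tested for a single distant value (Dixon's ratio), 3 had one, and chance flags about 1 in 20 such sets. At the *Hnrnpa1* probe at base 1712, fiber 1 of WT mouse 1 read 4.61, with the nearest WT myofiber at 2.78. At the *Smn1* probe at chr13:100898171-100898230, fiber 3 of Smn1deltaSKM+AFS mouse 1 read 3.88, with the nearest at 2.96. At the *Smn1* probe at chr13:100907539-100907598, fiber 4 of WT mouse 2 read 0.63, with the nearest at 1.56.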

How the results depend on the processing

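No member or *Smn1* difference that was called changed sign under any alternative. Between Smn1deltaSKM and WT, the 6 called members became 23 with myofibers as replicates (46.0%, against 54.1% of all probes), 15 with the mouse as a random block (30.0% against 34.8%), 1 with the slide as a random block (2319 of all 22169 probes) and 0 at a threshold of 0.01, and ran from 0 to 16 with each mouse left out. Between Smn1deltaSKM+AFS and WT, the 4 became 2 with quantile normalization (3.55% of all probes), 2 with the authors' value table (3.76%), 17 with myofibers as replicates (34.0% against 41.3%), 7 with the mouse as a random block (20.1% of all probes), 2 with the slide as a random block (4.0% against 6.5%) and 0 at 0.01, and ran from 0 to 8 with each mouse left out. Between the knockout groups no member was called under 18 alternatives or with any mouse left out, while over all probes 519 (2.34%) were called with the slide as a fixed and the mouse as a random block, and 26 with myofibers as replicates. Mouse numbers name different animals. Deviations from the group means, correlated over probes between mice of different groups, gave r from -0.053 to 0.30 for same-numbered mice. For differently numbered mice r ran from -0.312 to 0.312. With the mouse number as a replicate block, 1 member was called in Smn1deltaSKM against WT (13.9% of all probes) and 1 in Smn1deltaSKM+AFS against WT (5.51%). The cause of these changes was not tested.

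The scaling set the balance of directions: between Smn1deltaSKM and WT, 2 members were higher and 4 lower, but 1 and 5 with quantile normalization, 4 and 3 with normexp, 1 and 6 with the authors' table, and 3 and 3 when the median of the probes available on every array was set to 0, which moved the median of all probes from -0.14 to 0.08. Over all probes the split was 1625 higher and 3132 lower, and 2196 and 1795 when so centred. The fit without a filter called 0 members higher and 4 lower (6.56%, against 12.6% of all probes). The fit of the 2 groups alone called 0 and 4 (8.0% against 15.9%). The *Hnrnpa1* call at base 1712 between Smn1deltaSKM and WT was lost only without WT mouse 1 (adjusted p = 0.130), without WT mouse 2 (0.0552) and at 0.01, while *Hnrnph2* lost its call there in 8 of 14 settings that kept all mice. The *Smn1* difference of -1.68 missed the threshold of 0.01, and ran from -1.78 to -1.57 with each mouse left out (adjusted p from 0.0122 to 0.160), losing the call without WT mouse 1, WT mouse 2 or Smn1deltaSKM mouse 2. The position comparison gave 8 or 9 of 11 members lower with each mouse left out, and 2 members called without Smn1deltaSKM mouse 1.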
